A study of Homo sapiens with 6 samples.

Results

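The genes described here are 9 genes that bind retinoic acid inside the cell, carry its signal to DNA or set how much of it is present: CRABP1, CRABP2, RARA, RARB, RARG, RXRA, RXRB, DHRS3 and CYP26B1. They were found by gene symbol among the 24294 loci of the deposited expression table. RXRB is listed 6 times, of which 5 copies on alternative haplotypes are at 0, and the copy on the main chromosome 6 was used. RNA sequencing compared 3 libraries of MCF12A cells with stable over-expression of miR-424 with 3 libraries of MCF12A cells that carry the empty vector (EV), each from 1 of 3 cultures grown for 48 hours. MCF12A is an immortalized human mammary epithelial line, although the labels call it a breast cancer line. The cultures of a group are parallel cultures of stably modified cells, and the labels give neither the number of independent derivations nor the vector's promoter. The p-values therefore cover variation from culture to culture and library to library, and not that among derivations. The 9 genes were listed with the results of this comparison known, so their differences are a description and not independent evidence.

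Retinoic acid is made from retinol by way of retinal and acts through nuclear receptors. The receptors RAR alpha, beta and gamma pair with a retinoid X receptor (RXR) on DNA elements near target genes, where they hold corepressors until retinoic acid binds and coactivators take their place. CRABP2 carries retinoic acid to the RARs, DHRS3 turns retinal back into retinol, and CYP26B1 oxidizes retinoic acid for its removal. Retinoids are known for promoting differentiation and restraining growth in many epithelia.

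The over-expressed microRNA and the sequences that could match its seed are shown first, since the seed is the part by which a microRNA recognizes most targets. The mature strand (RefSeq, GRCh38.p14, chromosome X, minus strand) has its seed, bases 2 to 8, in capitals. The deposited table does not measure mature microRNAs.
hsa-miR-424-5p: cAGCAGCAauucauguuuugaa
The letters TGCTGCT, complementary to that seed, were searched for on the sense strand of the longest 3′ UTR that GENCODE 29 (GRCh38) annotates for RefSeq-matched transcripts of each gene. They were present in 3 of the 9 genes, against 20.4% of 18921 loci with a 3′ UTR of at least 30 bases. The match is in capitals below.
CYP26B1: attacctatTGCTGCTacttgttct
RARG: gaggggggaTGCTGCTtagctgatc
RARB: catttttacTGCTGCTtagtttttg
The CYP26B1 match starts at base 582 of a 3′ UTR of 2989 bases and is followed by A, opposite the first base of the microRNA. The RARG match starts at base 797 of 1109 bases, and that of RARB at base 78 of 1316 bases. The letters are not in the annotated 3′ UTRs of CRABP2 (420 bases), DHRS3 (430 bases), CRABP1 (253 bases), RARA (1417 bases) or RXRB (1094 bases). For RXRA the window searched was 405 bases, which may not be the whole 3′ UTR, and the letters are not in it. A match is a description of letters and not a measured site.

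Promoters were searched, on both strands, for the hexamers to which retinoid receptors bind (AGGTCA as well as GGGTCA, together with AGTTCA and also GGTTCA). RefSeq promoters of 300 bases, 250 before to 50 after each start, were available for all 9 genes, with 18 starts in all. Of these promoters 8, of 5 genes, held at least 1 hexamer, against 38.6% of 35116 promoters. A direct repeat of the hexamer with a spacer of 5 bases, a classical arrangement for RAR and RXR, was found in 1 of the 18, a promoter of RARB, and in 0.0883% of all promoters. This promoter and that of CRABP2, the gene with the largest change among those tested, are printed with the hexamers in capitals (GRCh38.p14; RARB on the plus strand at chr3:25428013-25428312, CRABP2 on the minus strand at chr1:156705735-156706034).
RARB: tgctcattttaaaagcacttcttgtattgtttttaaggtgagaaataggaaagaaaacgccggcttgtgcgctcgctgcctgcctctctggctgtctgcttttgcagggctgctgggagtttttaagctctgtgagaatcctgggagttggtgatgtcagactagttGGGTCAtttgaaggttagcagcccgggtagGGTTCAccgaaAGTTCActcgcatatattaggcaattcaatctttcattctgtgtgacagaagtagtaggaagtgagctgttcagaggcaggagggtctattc
CRABP2: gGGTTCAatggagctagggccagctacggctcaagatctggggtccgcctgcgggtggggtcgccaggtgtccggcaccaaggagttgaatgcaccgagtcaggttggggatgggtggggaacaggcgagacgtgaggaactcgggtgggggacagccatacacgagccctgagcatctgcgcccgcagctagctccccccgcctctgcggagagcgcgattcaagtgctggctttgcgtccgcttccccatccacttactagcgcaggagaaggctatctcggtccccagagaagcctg
The RARB repeat, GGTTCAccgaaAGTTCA, spans bases 198 to 214 of its window. The CRABP2 window holds a single hexamer at its far end. The promoter of CYP26B1 holds none of the 4 hexamers, which says only that these letters are not in this window.

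Expression is given in FPKM, as the authors deposited it. The unit stands for fragments scaled by transcript length and by the mapped fragments of the library. The sources used here do not state how the libraries were in fact scaled. FPKM values summed to between 409776 and 416076 in miR-424 libraries and between 419938 and 424564 in EV libraries. The locus of the microRNA and its host transcript (MGC16121/MIR424, hg19 chromosome X, 133677406 to 133680741) read 107, 106 and 224 FPKM in miR-424 cells, against 0.989, 1.27 and 1.23 FPKM in EV cells. In this value, RNA from the vector and RNA from the cells' own locus cannot be told apart. miR-424 replicate 3 stood apart from its group, with a median absolute log2 difference per tested locus of 0.142 and 0.152 from replicates 1 and 2, which differed by 0.0408 from each other. The 11574 loci whose mean over the 6 libraries reached 1 FPKM were compared with limma on log2(FPKM + 1), with Benjamini-Hochberg adjustment over all of them and a threshold of 0.05. Of these, 144 rose (1.24%) and 731 fell (6.32%) in miR-424 cells. With median-of-ratios scaling between libraries 308 rose and 495 fell. Luminal mammary markers (KRT8, KRT18, EPCAM, CDH1, ESR1) summed to 239 to 261 FPKM in miR-424 libraries and 249 to 259 FPKM in EV libraries, nearly all of it from KRT8 and KRT18. CDH1, which encodes E-cadherin, was under 0.04 FPKM in each library. ESR1 read 0.0282 to 0.0808 FPKM in miR-424 libraries and 0.0583 to 0.0952 FPKM in EV libraries. Basal markers, among which KRT5 fell and KRT14 rose, summed to 88.5 to 90.7 FPKM in miR-424 libraries and 105 to 110.4 FPKM in EV libraries. The basal marker TP63 read 0.134 to 0.192 FPKM in miR-424 libraries and 0.0961 to 0.168 FPKM in EV libraries. Of 5 fibroblast markers COL1A1 and DCN were above 1 FPKM; the 5 summed to 164 to 186 FPKM in miR-424 libraries and 156 to 166 FPKM in EV libraries, and COL1A1 rose (log2 change 0.21; limma adjusted p = 0.0456). LUM read 0.166 to 0.206 FPKM in miR-424 libraries and 0.0267 to 0.0970 FPKM in EV libraries. With no minimum on FPKM LUM rose (limma adjusted p = 0.0358), but the call of COL1A1 was lost (0.0545). PDGFRB and COL3A1 were under 1 FPKM and did not pass in that fit. The part of these marker shifts in the results below was not tested. Leukocyte and endothelial lists summed to at most 1.64 and 0.306 FPKM in miR-424 libraries and at most 1.78 and 0.341 FPKM in EV libraries.

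CRABP2 had about 0.527 times its EV level in miR-424 cells and was the one of the 9 genes that passed the test. CYP26B1 and DHRS3 were also lower in each miR-424 library than in any EV library, but both lay under the minimum for testing, and none of the 4 tested receptors passed. Of the 9 genes 5 reached the minimum for testing, and 1 of these, CRABP2, fell while 0 rose in limma, beside the 6.32% and 1.24% of all tested loci. At an unadjusted p under 0.05, 2 of the 5 were lower (CRABP2 and RARG) and 0 were higher, beside 19.3% and 4.29% of all tested loci. The median log2 change of the 5 was -0.11, against -0.05 over all tested loci. CRABP1 was listed at 0 in all 6 libraries, and RARB, DHRS3 and CYP26B1 were under the minimum. Every miR-424 value lay under every EV value in 3 of the 5 tested genes, CRABP2, RARA and RARG, and in 26.9% of tested loci. Among the 8 genes above 0 this held for 5, with DHRS3 and CYP26B1 added, and for 21.5% of the 19342 loci above 0. Since the genes were listed with this contrast known, nothing is read from these counts. In bulk RNA, fewer cells that express a gene and less of its RNA per cell cannot be told apart.

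**Figure D1:**
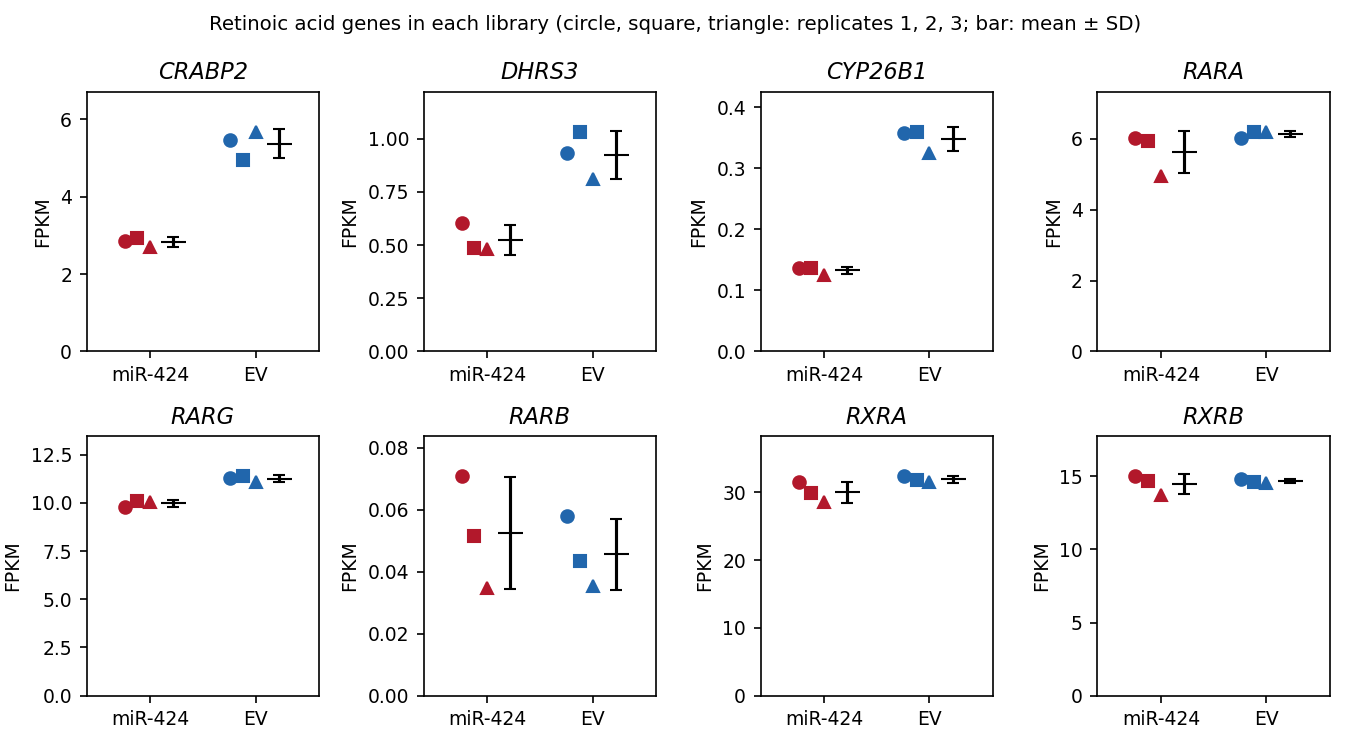
FPKM (y axes from 0) of the 8 detected genes in each library, miR-424 left and EV right, with the mean ± SD of 3 libraries beside the points. CRABP2, DHRS3 and CYP26B1 show miR-424 libraries well under the EV libraries, while the groups of RXRA, RXRB and RARB overlap; miR-424 replicate 3 (triangle) is the lowest miR-424 value of each gene but RARG.

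CRABP2, the cytoplasmic carrier that hands retinoic acid to the RARs in the nucleus, read 2.85, 2.94 and 2.70 FPKM in miR-424 replicates 1, 2 and 3, against 5.47, 4.96 and 5.68 FPKM in EV replicates 1, 2 and 3. The miR-424 libraries lay close together and all under the lowest EV library. The group means were 2.83 ± 0.12 FPKM in miR-424 cells and 5.37 ± 0.37 FPKM in EV cells (SD, n = 3 each), a ratio of 0.527. On the log2(FPKM + 1) scale, which understates the change of low genes, CRABP2 (hg19 chromosome 1, 156669399 to 156675608) changed by -0.73 ± 0.06 (SE; limma, Benjamini-Hochberg adjusted p = 0.00211). It passed the threshold in all 14 alternatives in which it was tested, with limma adjusted p between 0.000244 and 0.0255. CRABP1, the paralog that also binds retinoic acid in the cytoplasm, was listed at 0 in every library (chromosome 15, 78632665 to 78640572).

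CYP26B1, the hydroxylase that inactivates retinoic acid, read 0.137, 0.136 and 0.126 FPKM in miR-424 cells, against 0.358, 0.360 and 0.325 FPKM in EV cells. The groups did not overlap, and the ratio of the means, 0.382, was the lowest of the detected genes (0.133 ± 0.006 FPKM in miR-424 cells and 0.348 ± 0.019 FPKM in EV cells, SD, n = 3 each). Its locus (chromosome 2, 72356366 to 72374963) is low, and no fragment numbers stand behind these values in the deposited table. With no minimum on FPKM, CYP26B1 changed by -0.25 ± 0.02 on the log2(FPKM + 1) scale and by -0.94 with a pseudocount of 0.1 (limma, Benjamini-Hochberg adjusted p = 0.00469 and 0.00533). It did not pass without EV replicate 1 or 2 (limma adjusted p = 0.0533 and 0.0516), and the range over 13 alternatives was 0.00341 to 0.0701.

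DHRS3, which reduces retinal to retinol and so limits the supply of retinoic acid, read 0.606, 0.484 and 0.480 FPKM in miR-424 cells, against 0.931, 1.03 and 0.809 FPKM in EV cells. The highest miR-424 library lay under the lowest EV library, and the ratio of the means was 0.566 (0.524 ± 0.071 FPKM in miR-424 cells and 0.924 ± 0.112 FPKM in EV cells, SD, n = 3 each). With no minimum on FPKM the log2 change of this locus (chromosome 1, 12627938 to 12677820) was -0.34 ± 0.06 (limma, Benjamini-Hochberg adjusted p = 0.0328). Its call was lost without any 1 of EV replicates 1, 2 and 3 (limma adjusted p = 0.142, 0.125 and 0.0807) or of miR-424 replicates 1 and 2 (0.0712 and 0.111). Without a minimum, 3 of the 8 genes above 0 fell (CRABP2, CYP26B1 and DHRS3) and 0 rose, beside 3.87% and 0.786% of the 19342 loci.

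The RAR genes encode the receptors that bind retinoic acid itself. RARG had the highest level of the RARs, with 9.76, 10.1 and 10.1 FPKM in miR-424 cells, against 11.3, 11.4 and 11.1 FPKM in EV cells. The groups did not overlap, but the difference was small, with a ratio of 0.886 and the locus (chromosome 12, 53604349 to 53626040) missed the threshold at -0.16 ± 0.04 on the log2 scale (adjusted p = 0.0561 in limma). Without miR-424 replicate 3 the change was -0.17 and passed the threshold (limma adjusted p = 0.00561), the only 1 of its 15 alternatives to do so. Median-of-ratios scaling gave -0.11 (limma adjusted p = 0.223).

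RARA read 6.01, 5.92 and 4.96 FPKM in miR-424 cells, against 6.03, 6.20 and 6.18 FPKM in EV cells. Replicates 1 and 2 of miR-424 were next to EV replicate 1, and replicate 3 alone was clearly lower. On the log2 scale the difference was -0.11 ± 0.07 (adjusted p = 0.406 in limma; chromosome 17, 38465422 to 38513895), and -0.034 without miR-424 replicate 3 (limma adjusted p = 0.430). RARB, whose own promoter carries the printed repeat and which is known to be induced by retinoic acid, was near 0, with 0.0709, 0.0515 and 0.0347 FPKM in miR-424 cells and 0.0578, 0.0433 and 0.0355 FPKM in EV cells. The RARB groups overlapped over nearly their whole range (chromosome 3, 25469753 to 25639422).

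RXRA and RXRB encode the partners that RARs and several other nuclear receptors share. RXRA, the most highly expressed of the 9 genes, read 31.6, 29.8 and 28.5 FPKM in miR-424 cells, against 32.4, 31.7 and 31.5 FPKM in EV cells. The highest miR-424 library overlapped the EV range, and the difference, -0.087 ± 0.047 on the log2 scale, missed the threshold (adjusted p = 0.321 in limma; chromosome 9, 137218315 to 137332431). RXRB read 15.0, 14.7 and 13.7 FPKM in miR-424 cells, against 14.8, 14.6 and 14.6 FPKM in EV cells. Its groups overlapped, and its difference of -0.019 ± 0.046 on the log2 scale turned to 0.034 with median-of-ratios scaling (adjusted p = 0.859 and 0.602 in limma; chromosome 6, 33161361 to 33168473).

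By level per length, the order in both groups was RXRA, RXRB, RARG, RARA, CRABP2, DHRS3, CYP26B1, RARB and CRABP1. In either group no library of a gene in this order overlapped the range of its neighbour. RARG made up 61.6%, 62.8% and 66.8% of the summed RAR FPKM in miR-424 replicates 1, 2 and 3, against 65.0%, 64.6% and 64.1% in EV libraries. The RARG share overlapped between groups, and RARB was at most 0.447% of the sum in miR-424 libraries and 0.333% in EV libraries. RXRA made up 67.7%, 67.0% and 67.5% of the summed RXR FPKM in miR-424 libraries, against 68.6%, 68.4% and 68.4% in EV libraries. The shares of RXRA did not overlap but differed by about a percentage point, with means of 67.4% ± 0.37 in miR-424 cells and 68.5% ± 0.12 in EV cells (SD, n = 3 each). RXRG, the third RXR gene, was listed at 0 in all libraries but EV replicate 2, where it was at 0.00916 FPKM.

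**Figure D2:**
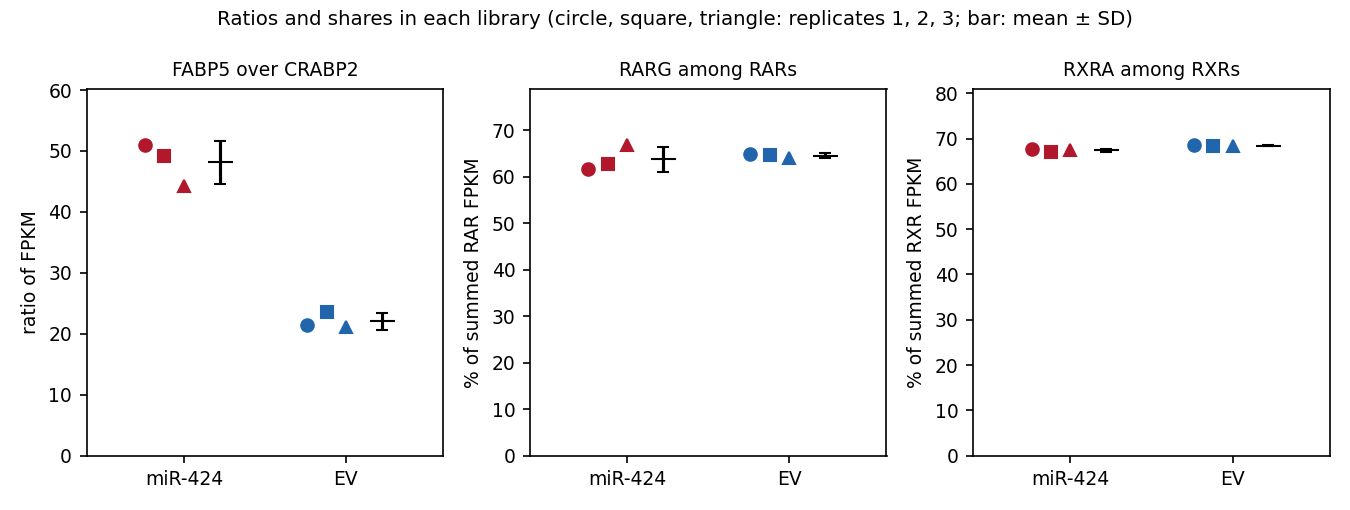
Ratio of FABP5 to CRABP2 FPKM, RARG as a percent of summed RAR FPKM and RXRA as a percent of summed RXR FPKM in each library, miR-424 left and EV right, with the mean ± SD of 3 libraries. The FABP5 to CRABP2 ratio is 44.2 to 51.0 in miR-424 libraries and 21.2 to 23.7 in EV libraries, while the RARG shares overlap.

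FABP5, a fatty acid binding protein that can carry retinoic acid to PPAR delta instead of the RARs, was the most abundant carrier. It read 145, 145 and 119 FPKM in miR-424 cells, against 117, 117 and 120.2 FPKM in EV cells, and replicate 3 of miR-424 lay within the EV range. Its difference of 0.20 ± 0.08 on the log2 scale missed the threshold (adjusted p = 0.185 in limma), but it was 0.29 without miR-424 replicate 3 and passed there, with median-of-ratios scaling (0.26) and with the GC trend removed (0.25; limma adjusted p = 0.000172, 0.0426 and 0.0393). FABP5 has near-identical processed copies in the genome, so its value is uncertain. The ratio of FABP5 to CRABP2 FPKM was 51.0, 49.2 and 44.2 in miR-424 libraries, against 21.4, 23.7 and 21.2 in EV libraries, and the groups did not overlap. The ratio contains CRABP2, whose difference was known when the genes were listed, and is a description.

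Other genes of the pathway were counted from 6 lists covering 87 further genes in the table, of which 76 were above 0 and 44 were tested. In these lists 2 genes rose and 6 fell, beside 1.24% and 6.32% of all tested loci, and their median log2 change was -0.04, against -0.05 over all. The supply side of the pathway was low or did not pass. Of 10 genes for uptake, storage and retinol binding only FABP5 and DGAT1 were tested, with 0 calls in limma and 1 (FABP5, higher) at an unadjusted p under 0.05, beside 4.29% of all tested loci, and STRA6, the receptor for retinol binding protein, was at 0.0940 ± 0.0211 FPKM in miR-424 cells and 0.0888 ± 0.0144 FPKM in EV cells (SD, n = 3 each). Of 23 genes listed for the oxidation or reduction of retinol and retinal 7 were tested, and 0 passed in limma, also at an unadjusted p under 0.05. With no minimum on FPKM, 1 of the 18 above 0 fell and 0 rose, beside 3.87% and 0.786% of the 19342 loci. The gene that fell, named after its values were seen, was BCO2, which cleaves carotenoids and does not itself oxidize or reduce retinol or retinal. It was at 0.162 ± 0.018 FPKM in miR-424 cells and 0.255 ± 0.019 FPKM in EV cells (SD, n = 3 each), without overlap (limma adjusted p = 0.0332). BCO2 is thus low, and its call was not followed under the other settings.

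ALDH1A3, a retinal dehydrogenase and the one of its ALDH1A family above 1 FPKM, read 6.14, 6.40 and 5.09 FPKM in miR-424 cells, against 6.44, 7.32 and 6.86 FPKM in EV cells without overlap (log2 change -0.20 ± 0.08; adjusted p = 0.215 in limma). RDH10, which oxidizes retinol to retinal, read 2.84, 2.67 and 2.02 FPKM in miR-424 cells, against 2.71, 2.88 and 2.66 FPKM in EV cells (log2 change -0.10 ± 0.09; limma adjusted p = 0.575). The retinol dehydrogenase RDH5 had the highest value in this list, 35.7 ± 2.44 FPKM in miR-424 cells and 37.6 ± 0.45 FPKM in EV cells (SD, n = 3 each), but shares its locus with BLOC1S1. Its log2 change of -0.07 passed only without miR-424 replicate 3 (-0.13; limma, Benjamini-Hochberg adjusted p = 0.478 and 0.00614). Both other CYP26 hydroxylases were near 0, CYP26A1 at up to 0.0112 FPKM in miR-424 libraries and 0.00945 FPKM in EV libraries, and CYP26C1 at up to 0.0112 FPKM in miR-424 libraries and 0.0488 FPKM in EV libraries. CYP26B1 was thus the CYP26 gene with the highest level in each library.

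**Figure D3:**
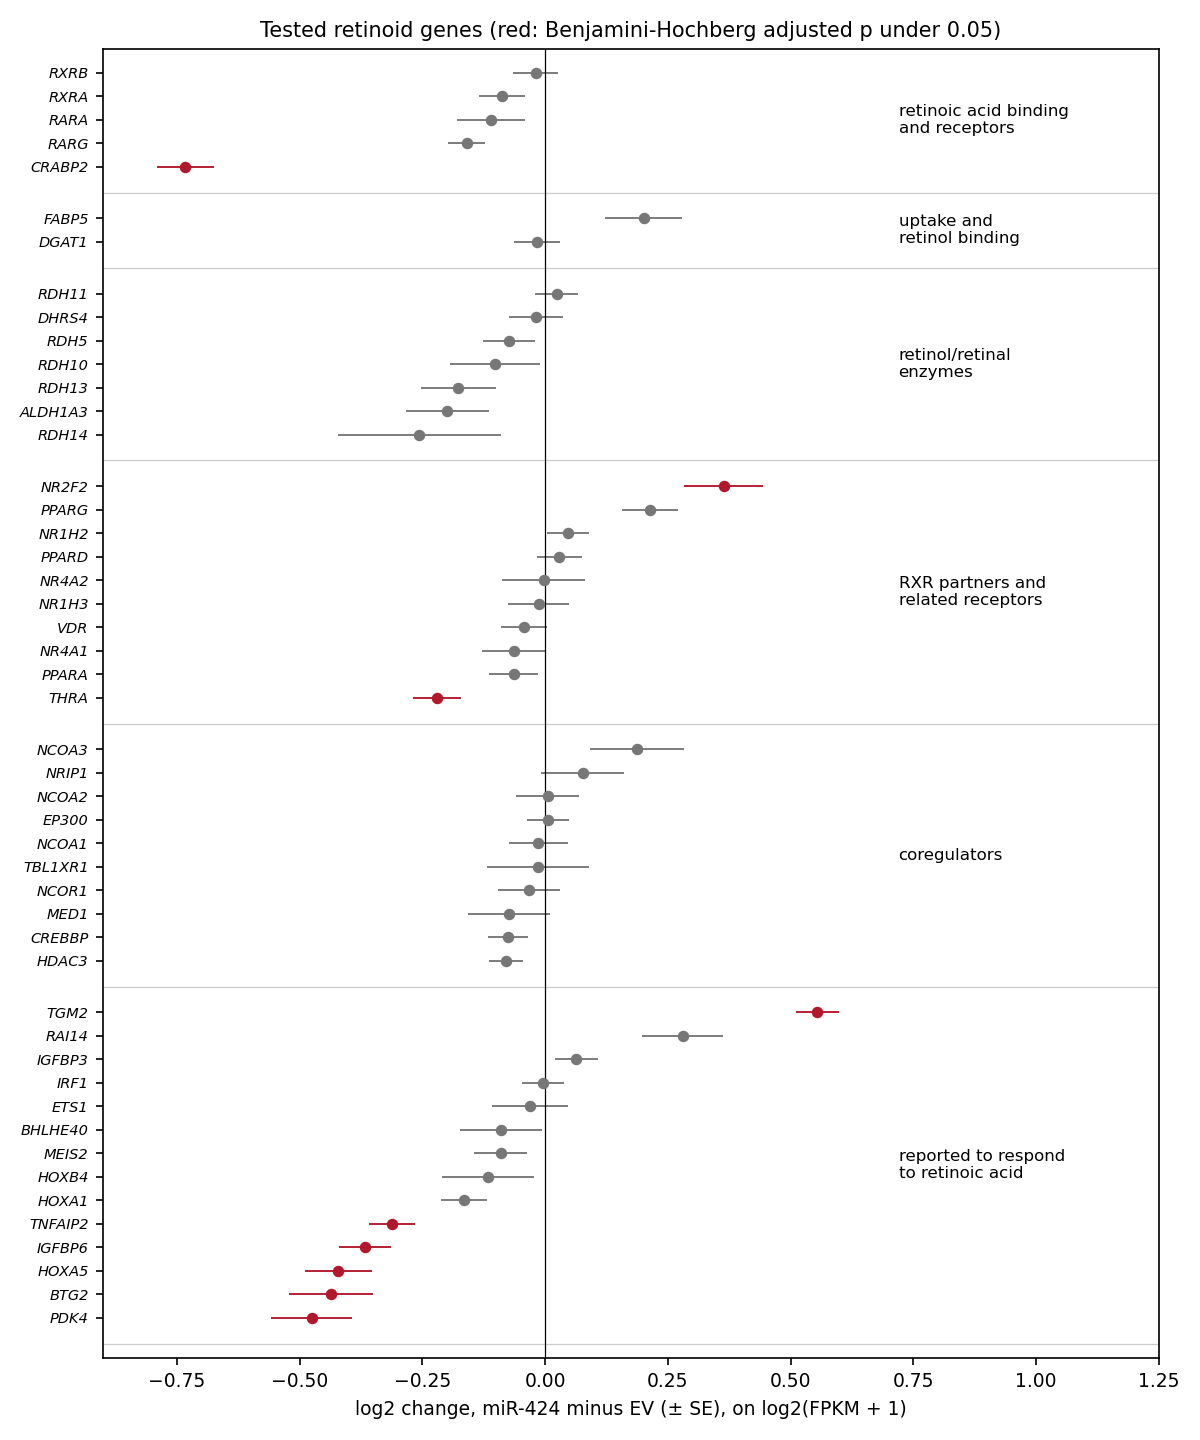
Log2 change of the tested genes (1 coregulator is not shown), miR-424 minus EV on log2(FPKM + 1), with its SE (x axis), grouped by role and sorted within each group; red points passed a Benjamini-Hochberg adjusted p of 0.05 in limma. CRABP2 is the lowest point at -0.73, and RARA, RARG, RXRA and RXRB lie between -0.16 and -0.02. Of the genes in the other lists TGM2 and NR2F2 rose and 6 fell.

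Among 10 tested receptors that pair with RXR or bind related elements, 1 rose and 1 fell, beside 1.24% and 6.32% of all tested loci. At an unadjusted p under 0.05, 2 of the 10 were higher and 1 was lower, beside 4.29% and 19.3%. Besides NR2F2 the higher gene was PPARG, named after its values were seen. It was at 5.25 ± 0.30 FPKM in miR-424 cells and 4.39 ± 0.25 FPKM in EV cells (SD, n = 3 each), without overlap, and missed the threshold (limma adjusted p = 0.0726). NR2F2, an orphan receptor (COUP-TFII) that can occupy retinoid elements, read 7.24, 7.51 and 5.94 FPKM in miR-424 cells, against 5.05, 5.12 and 5.17 FPKM in EV cells (log2 change 0.36 ± 0.08; limma adjusted p = 0.0429). THRA, the thyroid hormone receptor alpha, read 12.8, 11.9 and 12.5 FPKM in miR-424 cells, against 15.0, 13.9 and 14.9 FPKM in EV cells (log2 change -0.22 ± 0.05; limma adjusted p = 0.0447). For neither gene did the groups overlap, but both calls were lost when any 1 of the 5 libraries besides miR-424 replicate 3 was left out, with limma adjusted p from 0.106 to 0.171 for NR2F2 and from 0.0918 to 0.194 for THRA. With no minimum on FPKM both calls were also lost (limma adjusted p = 0.0728 for NR2F2 and 0.0565 for THRA). THRA passed in 5 of 15 alternatives, and its call was lost with median-of-ratios scaling (0.132), quantile normalization (0.144) and the GC trend removed (0.0545). Coregulators of the receptors, such as the corepressor NCOR1 and the coactivators NCOA1 to NCOA3, gave 0 calls of 11 tested in limma. At an unadjusted p under 0.05, 1 of the 11 was lower and 0 were higher, beside 19.3% and 4.29% of all tested loci. The most abundant coregulator, TBL1XR1, was at 29.8 ± 4.42 FPKM in miR-424 cells and 29.9 ± 0.94 FPKM in EV cells (SD, n = 3 each). Without miR-424 replicate 3 the change of TBL1XR1 was 0.11 and passed (limma, Benjamini-Hochberg adjusted p = 0.0238), against -0.01 with all libraries (0.957).

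Of 14 tested genes reported in other cells to respond to retinoic acid, 1 rose and 5 fell, beside 1.24% and 6.32% of all tested loci, and their median log2 change was -0.10, against -0.05 over all. At an unadjusted p under 0.05, 2 of the 14 were higher and 6 were lower, beside 4.29% and 19.3% of all tested loci. The list was drawn up with the results of this comparison known, so its counts are a description. TGM2, transglutaminase 2, a gene induced by retinoic acid in many cell types, read 119.9, 117 and 127 FPKM in miR-424 cells, against 83.6, 82.9 and 79.9 FPKM in EV cells. Every miR-424 library lay above every EV library (log2 change 0.55 ± 0.04; limma, Benjamini-Hochberg adjusted p = 0.00214), and TGM2 passed in all 15 alternatives. IGFBP6, which binds insulin-like growth factors, read 17.7, 16.4 and 18.5 FPKM in miR-424 cells, against 22.5, 22.5 and 23.5 FPKM in EV cells (log2 change -0.37 ± 0.05; limma adjusted p = 0.0121). TNFAIP2 read 13.8, 13.7 and 12.7 FPKM in miR-424 cells, against 17.2, 16.7 and 16.7 FPKM in EV cells (log2 change -0.31 ± 0.05; limma adjusted p = 0.0132). The calls of IGFBP6 and TNFAIP2 were lost without any 1 EV library (limma adjusted p from 0.0700 to 0.0802 and from 0.0802 to 0.0863). Most calls over all tested loci were also lost there. Falls numbered 77, 79 and 84 without EV replicate 1, 2 and 3, against 731 with all libraries.

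The other falls of this list, named after their values were seen, were PDK4, a kinase that restrains pyruvate dehydrogenase, the antiproliferative gene BTG2 and the homeobox gene HOXA5. Their log2 changes were -0.48 ± 0.08, -0.44 ± 0.09 and -0.42 ± 0.07 (SE; limma, Benjamini-Hochberg adjusted p = 0.0212, 0.0310 and 0.0173). Their calls were lost without any 1 EV library or miR-424 replicate 1, with limma adjusted p from 0.0664 to 0.108 for PDK4, from 0.0697 to 0.140 for BTG2 and from 0.0632 to 0.0851 for HOXA5. The call of BTG2 was also lost with no minimum on FPKM (limma adjusted p = 0.0538). RARB, itself a known target, was near 0 in both groups, as given above.

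The 5 loci whose profile over the 6 libraries was nearest to that of CRABP2, by the root mean square difference of log2(FPKM + 1) minus the EV mean among the 8305 loci averaging 5 FPKM or more, were STMN3, ANXA8L2, ARL2/SNX15 and 2 rows of ANXA8. The difference was 0.0523 for STMN3, a stathmin that binds tubulin, which averaged 4.66 FPKM in miR-424 cells and 8.10 FPKM in EV cells. It was 0.0776 for ANXA8L2, 0.0791 for ARL2/SNX15 and 0.0819 and 0.0853 for ANXA8, which encodes an annexin. ANXA8 and ANXA8L2 are near-identical copies whose reads cannot be assigned with certainty, and these 3 rows may be 1 signal. Since profiles were set against the EV mean, loci with a log2 change like that of CRABP2 are near by construction. The 5 loci changed by -0.65 to -0.75, and shared regulation was not tested. The minimum of 5 FPKM also leaves out loci at the level of CRABP2 itself (mean 4.10 FPKM).

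**Figure D4:**
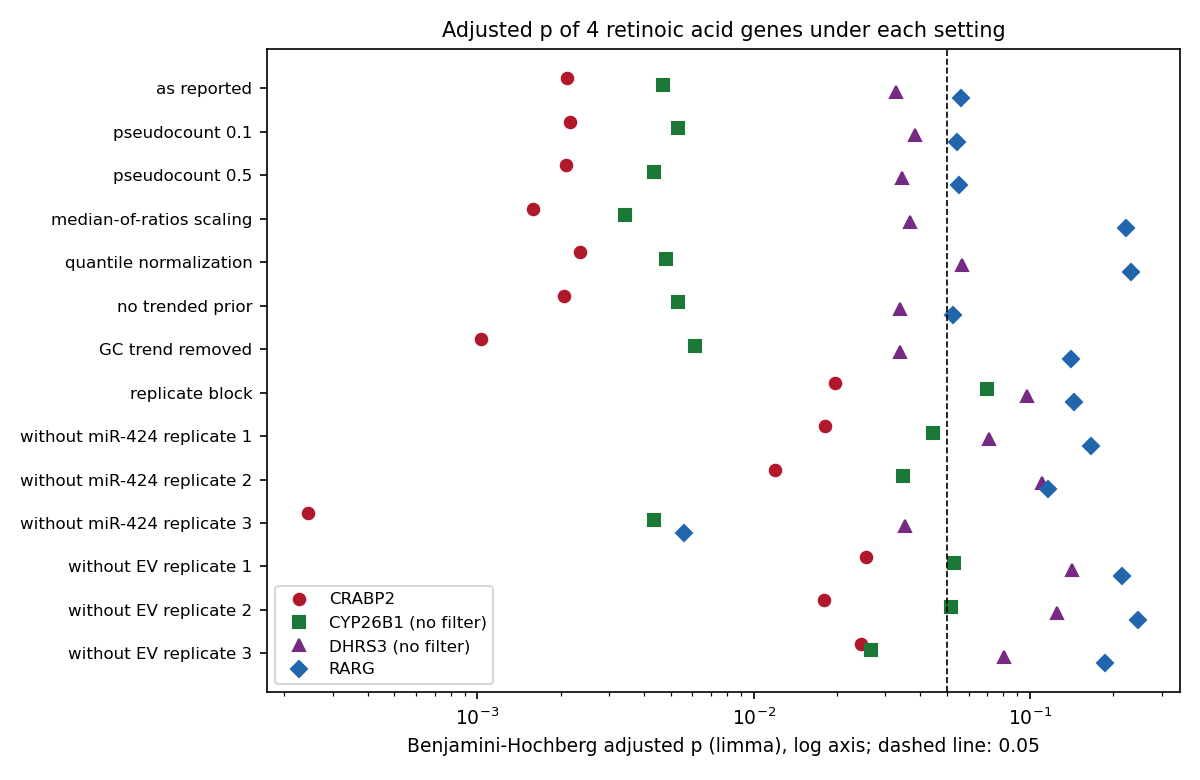
Benjamini-Hochberg adjusted p from limma (log x axis; dashed line at 0.05) of CRABP2, CYP26B1, DHRS3 and RARG under each setting (y axis), with no minimum on FPKM for CYP26B1 and DHRS3. CRABP2 stays under the line in every setting shown, CYP26B1 crosses it in 3 settings, DHRS3 in 7, and RARG is under it only without miR-424 replicate 3.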

How the data were processed

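The authors deposited 1 table of FPKM values, with 1 column per sample and, per the file headers, a locus position for each row. The submitters' processing notes name TopHat 1.4.1, Cufflinks 1.3.0 and Cuffdiff, and as builds GRCh37 and hg19, with no roles. The sources used here give no read numbers and no annotation, and do not state a scaling of the libraries. Steps in low FPKM values gave approximate depths of 0.779 to 1.23 relative to EV replicate 1, but at most 9.40% of low loci lay within 0.03 (log2) of a step, so no counts were recovered and no interval is given.

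Loci were tested with limma 3.58.1 (R 4.3.3) on log2(FPKM + 1), with a trended prior, a minimum mean of 1 FPKM and Benjamini-Hochberg adjustment over 11574 loci, two-sided. The function was tested on simulated data with noise drawn independently for each locus and library. That simulation does not cover a deviation of a whole library such as that of miR-424 replicate 3. An exact permutation test of 3 against 3 cannot go below 0.1. The members and gene lists were chosen with earlier results of these data known. Besides the members, named genes were, in each list, up to 3 that passed with the smallest adjusted p, or otherwise the one with the highest mean, and 7 genes set by name (CYP26A1, STRA6, RXRG, RDH10, ALDH1A3, FABP5, TGM2). The TruSeq v2 kit named in the labels' protocols does not mark strand, so reads of overlapping genes cannot be told apart. Sequences came from GENCODE 29 and RefSeq (GRCh38.p14), matched by accession or symbol and never by coordinates. Alternatives were other pseudocounts, filters, scalings and priors, a GC correction, a replicate block and leaving out each library. The values of 1 coregulator gene are not reported here.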

Additional observations from a re-analysis of the deposited data

How the results depend on the processing

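CRABP2 and TGM2 kept their direction and their call in every alternative that tested them (14 and 15). Over all loci, rises and falls numbered 308 and 495 when libraries were scaled by the median of ratios, 315 and 449 after quantile normalization, 685 and 833 with the GC trend removed, 107 and 468 at a minimum of 5 FPKM, and 31 to 1728 and 77 to 2574 when 1 library was left out, where the highest counts came without miR-424 replicate 3. Without EV replicate 1, 2 and 3, rises over all loci numbered 34, 31 and 35 and falls 77, 79 and 84. A call lost without 1 EV library was therefore common to most called loci. Falls among the 9 genes numbered 3 without a filter, 0 at a minimum of 5 FPKM, which removes CRABP2, and 1 to 2 when 1 library was left out. Rises among the other pathway genes numbered 1 without a filter, 5 when scaled by the median of ratios, 4 after quantile normalization, 7 with the GC trend removed and 1 to 8 when 1 library was left out, and falls then numbered 0 to 10. With the replicate number as a block, 79 loci rose and 270 fell, and 1 rise and 3 falls were left among the pathway genes. The block result gave limma adjusted p = 0.0197 for CRABP2 and, with no filter, 0.0701 for CYP26B1 and 0.0973 for DHRS3. The block also ended the calls of NR2F2 (0.0778), THRA (0.0727), BTG2 (0.0636) and HOXA5 (0.0555). Same-numbered libraries correlated at 0.051, 0.152 and 0.127 in their deviations from the group means, and the other pairs at -0.194 to 0.061. Of the 6 libraries 5 correlated best with their own number. These values do not settle whether the numbers pair the samples, and the main fit did not pair them. The sign turned for RXRA with the GC trend removed (0.0045), for RXRB under median-of-ratios scaling, after quantile normalization and with the GC trend removed (0.034, 0.033 and 0.053) and when 1 library was left out (-0.045 to 0.017, the highest without miR-424 replicate 3), for RARB without a filter and without miR-424 replicate 1 (-0.0033), for TBL1XR1 under the same 3 settings (0.040, 0.033 and 0.013) and without miR-424 replicate 3 or EV replicate 2 (0.11 and 0.011; -0.077 to 0.11 over all libraries left out), and for RDH10 without miR-424 replicate 3 (0.0019; -0.17 to 0.0019 over all libraries left out). The cause was not tested. The fits without a filter for RARB, DHRS3 and CYP26B1 under each other setting were added after seeing the data. For low genes, the unknown number of fragments limits what these values can show.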
